A study of Mus musculus with 4 samples.

Results

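The genes described here encode the proteins of the mitochondrial ribosome, the particle that translates the messages of the mitochondrial genome. They were taken as every gene whose array probe sets carry a single platform symbol beginning with Mrpl or Mrps and a number, with 1 such gene not analysed here. This gave 75 genes, 46 named for the large subunit and 29 for the small subunit, out of 18193 genes measured. They are read by 155 probe sets, 103 of large subunit genes and 52 of small subunit genes. The 75 genes lie on 17 chromosomes, and 0 of them lie on X or Y. No filter on low values was used, so all 75 were tested.

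The series holds 4 Affymetrix mouse arrays of growth plate chondrocytes, the cartilage cells of the zone where dividing cells stack into columns. The 2 Cilia-deleted arrays come from Col2aCre;Ift88fl/fl mice, in which Cre expressed from Col2a sequences removes Ift88, a gene needed to build the primary cilium, in cells that use Col2a. The 2 Control arrays come from mice labelled wild-type. Both groups were C57BL/6 mice at postnatal day 7, and their tissue was cut with a needle from 40 µm sections of proximal tibia and distal femur, so cells near the zone can be included. From each sample 50 ng of RNA passed through an amplification in 2 rounds primed with oligo dT. The labels call the samples biological replicates and give neither the sex, the litter nor the number of animals pooled in each.

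Mitochondrial ribosomes make a small set of membrane proteins of the respiratory chain and ATP synthase. Their RNA comes from the mitochondrial genome, while all of their proteins are coded in the nucleus, made in the cytosol and imported. Some of these proteins descend from bacterial ribosomal proteins and others are found only in mitochondria. Growth plate cartilage has no blood vessels, and its chondrocytes are known for relying heavily on glycolysis.

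Values are log2 and relative to the median of the same probe set over the 4 arrays, so that they give differences between arrays and no level of expression. For a gene with 1 probe set both middle arrays are therefore equal in size and opposite in sign. A gene with several probe sets is given as their mean. The group difference is the mean of the Cilia-deleted arrays minus the mean of the Control arrays. Adjusted p values come from limma with the Benjamini-Hochberg method across the 18193 genes, and the threshold was 0.05.

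Facts of the whole series that touch these genes are as follows. Ift88 had values of 0.22 and -0.069 on the Cilia-deleted arrays and 0.069 and -0.078 on the Control arrays. Its groups overlapped, with a difference of 0.080 (SE 0.154, n = 2 each, limma adjusted p = 1.0). Where its 1 probe set lies relative to the deleted exons is not given in the sources used here, so it checks nothing, and the groups are named as labelled. Xist, the RNA of the inactive X chromosome, read -3.79 and -3.61 on the Cilia-deleted arrays and 3.58 and 3.74 on the Control arrays. The Y-linked gene Eif2s3y read 1.80 and 1.55 on the Cilia-deleted arrays and -1.55 and -1.78 on the Control arrays. By these genes the sex of the animals parts the arrays exactly as the labels do, so sex and genotype cannot be told apart in any difference below. The SD over all probe sets was 0.173 and 0.223 on the Cilia-deleted arrays, 0.289 on Control 1 and 0.213 on Control 2. All 9 chondrocyte markers listed had at least 1 probe set in the brightest class, a coarse class read from the steps of the deposited decimals (lowest original log2 value of 8 or more). So did the 3 osteoblast markers and some of the muscle and the myeloid and osteoclast markers. The chondrocyte markers had medians of 0.10 and -0.015 on the Cilia-deleted arrays, -0.016 on Control 1 and 0.012 on Control 2. Their median difference was 0.035, and they went both ways. Comp (-0.54) and Hapln1 (-0.23) were lower with groups apart, and Col9a1 (0.13), Matn1 (0.24) and Matn3 (0.11) higher with groups apart. The other 4 overlapped. Markers of myeloid cells and osteoclasts stood high on Control 2, with a median over 6 genes of 1.45. Their medians were -0.57 and 0.34 on the Cilia-deleted arrays and -0.42 on Control 1. The median difference of these 6 genes was -0.63 with all 6 below 0. The 6 muscle markers had medians of -0.0095 and -0.094 on the Cilia-deleted arrays, 0.080 on Control 1 and 0.31 on Control 2. Their median difference was -0.26 with all 6 below 0. Control 1 was the highest array in 3 of them and Control 2 in the other 3. Mylpf had the largest difference, -1.05, with -0.38 and -0.56 on the Cilia-deleted arrays and 0.77 and 0.38 on the Control arrays. The 3 osteoblast markers had medians of 0.45 and -0.68 on the Cilia-deleted arrays, -0.44 on Control 1 and 0.52 on Control 2, and a median difference of -0.54 with all 3 below 0. The 3 prehypertrophic and hypertrophic markers had medians of 0.68 and -0.35 on the Cilia-deleted arrays, -0.17 on Control 1 and 0.044 on Control 2. The part of other cells in the values below was not tested.

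To show what regulatory sequence these genes carry, the promoters of the lowest and the highest named gene of each subunit that the RefSeq table holds are printed 5′ to 3′ along the gene's strand (RefSeq, GRCm38.p6, 250 bases before to 50 after the annotated start). Mrps28 has no entry, and Mrps33 was the next lowest small subunit gene. Capitals mark matches on either strand to 4 motifs tied to genes of mitochondria or to housekeeping genes: GCGCATGCG of NRF1, CCGGAAG of ETS factors such as GABP, AAGATGGCG of YY1, and the GC box GGGCGG. The Mrpl2 window, the first of 3 that the table holds for this gene, is chr17:46645971-46646270 on the plus strand. It holds 2 GC boxes on opposite strands. The Mrpl32 window, chr13:14612988-14613287 on the minus strand, holds 4 matches. They are an NRF1 match read on both strands over nearly the same bases, another NRF1 match and a GC box. The Mrps33 window, chr6:39810887-39811186 on the minus strand, holds an ETS match and 3 GC boxes. The Mrps18a window, chr17:46110754-46111053 on the plus strand, holds an ETS match before the start and a YY1 match just after it.
Mrpl2: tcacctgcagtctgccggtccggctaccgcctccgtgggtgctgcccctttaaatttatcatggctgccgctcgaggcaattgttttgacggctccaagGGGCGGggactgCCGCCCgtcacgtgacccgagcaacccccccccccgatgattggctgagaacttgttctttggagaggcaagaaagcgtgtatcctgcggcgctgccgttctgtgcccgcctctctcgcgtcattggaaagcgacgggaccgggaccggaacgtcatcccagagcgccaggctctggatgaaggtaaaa
Mrpl32: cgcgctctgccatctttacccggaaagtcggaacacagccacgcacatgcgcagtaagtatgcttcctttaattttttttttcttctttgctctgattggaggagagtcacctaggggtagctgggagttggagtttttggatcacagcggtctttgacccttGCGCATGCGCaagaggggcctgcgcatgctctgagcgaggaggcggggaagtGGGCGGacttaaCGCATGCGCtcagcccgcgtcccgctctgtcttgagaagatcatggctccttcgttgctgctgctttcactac
Mrps33: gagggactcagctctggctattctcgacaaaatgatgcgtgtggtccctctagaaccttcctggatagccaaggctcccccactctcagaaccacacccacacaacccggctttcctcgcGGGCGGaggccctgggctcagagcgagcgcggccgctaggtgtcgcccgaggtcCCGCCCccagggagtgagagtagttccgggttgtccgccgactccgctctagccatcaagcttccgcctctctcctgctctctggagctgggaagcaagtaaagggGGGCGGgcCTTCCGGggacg
Mrps18a: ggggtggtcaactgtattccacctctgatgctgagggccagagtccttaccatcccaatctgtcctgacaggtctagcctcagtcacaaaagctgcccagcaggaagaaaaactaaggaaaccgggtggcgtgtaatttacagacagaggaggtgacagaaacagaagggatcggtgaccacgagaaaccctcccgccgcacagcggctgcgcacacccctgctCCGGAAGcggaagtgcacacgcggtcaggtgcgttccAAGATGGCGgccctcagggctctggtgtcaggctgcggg

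Of the 75 genes, 66 had a promoter window in that table. The ETS motif stood in 24 of the 66 (36.4%), against 9.12% of the windows of all 27025 genes in the table and 13.8% of those of the 14368 tested genes with a window. NRF1 matched 7 (10.6%), against 1.81% of all windows and 2.85% of those of tested genes. YY1 matched 8 (12.1%), against 1.49% and 2.35%. The GC box matched 33 (50.0%), against 35.9% and 54.1%. Nuclear-coded respiratory chain subunits, with 61 windows, held the ETS motif in 24.6%, NRF1 in 13.1%, YY1 in 8.20% and the GC box in 42.6%. These shares describe letters and not sites, and the GC content of the windows differed, with medians of 58.2% for the mitochondrial ribosomal protein genes, 52.7% for all windows and 58.7% for those of tested genes.

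None of the mitochondrial ribosomal protein genes passed the threshold. The count was 0 of 75, where 2 of 18193 genes, 0.011%, were called over all genes. Those 2 were the sex-linked genes Xist and Eif2s3y. The lowest adjusted p among them was 0.633, for Mrps28. At an unadjusted limma p under 0.05, 8 of the 75 were lower in Cilia-deleted chondrocytes, where 3.68% of all genes were. Of the 75, 0 were higher at that limit, where 2.29% of all genes were. The 8 genes were Mrpl2, Mrpl12, Mrpl28, Mrpl20 and Mrpl58 of the large subunit and Mrps28, Mrps34 and Mrps16 of the small subunit. With 2 arrays against 2, an exact two-sided permutation test of a single gene cannot give a p below 1 in 3, so only the limma model was used.

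As a group the genes lay below 0. The group difference was negative for 38 of 46 large subunit genes and 25 of 29 small subunit genes, where 51.8% of all genes were. The median difference was -0.17 for the large subunit (quartiles -0.32 and -0.063, from -0.61 to 0.35) and -0.19 for the small subunit (quartiles -0.34 and -0.063, from -0.77 to 0.18). Over all genes it was -0.0068. Both Cilia-deleted arrays lay below both Control arrays in 22 large subunit genes (47.8%) and 9 small subunit genes (31.0%), where the share over all genes was 18.6%. Both lay above in 2 large subunit genes and 2 small subunit genes, where the share over all genes was 14.7%. In the other 22 large and 18 small subunit genes the groups overlapped. In these bulk samples, fewer cells of a type and less RNA per cell cannot be told apart.

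The Control arrays were as far apart as the groups. The large subunit had medians of -0.042 and -0.055 on the Cilia-deleted arrays, 0.19 on Control 1 and 0.020 on Control 2. For the small subunit they were 0.00072 and -0.097 on the Cilia-deleted arrays, 0.28 on Control 1 and -0.039 on Control 2. Control 1 alone stood high, and Control 2 lay close to the Cilia-deleted arrays, inside their range for the small subunit. Control 1 was the highest array in 35 of 46 large subunit genes and 22 of 29 small subunit genes, where it was highest in 32.4% of all genes.

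**Figure D1:**
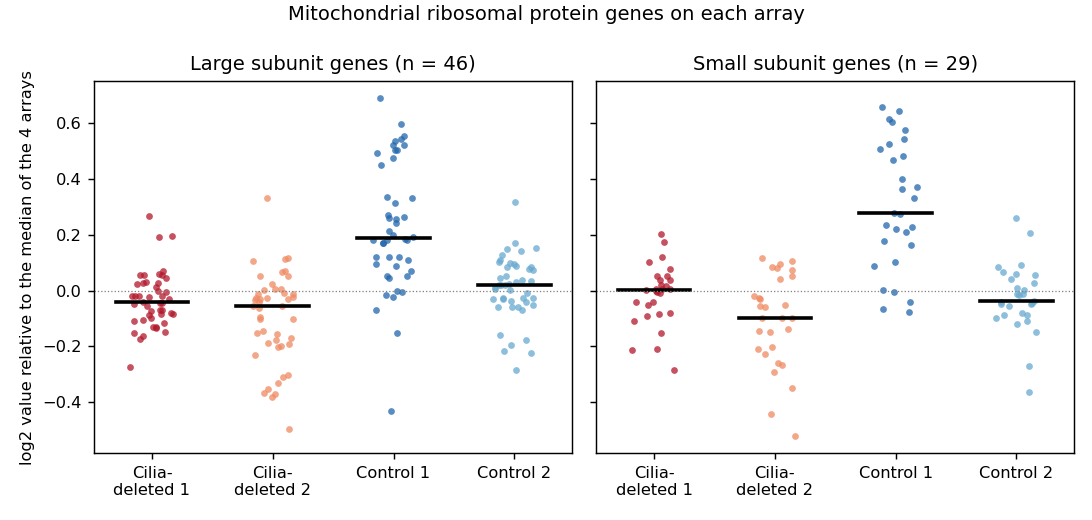
Log2 value relative to the median of the 4 arrays (vertical axis) for each large subunit gene (left, 46 genes) and small subunit gene (right, 29 genes) on each array, with bars at the median. Control 1 has medians of 0.19 and 0.28, while the other arrays lie between -0.097 and 0.020.

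Within groups, Cilia-deleted 1 minus Cilia-deleted 2 had a median of 0.062 over large subunit genes (SD 0.179) and 0.094 over small subunit genes (SD 0.199). Control 1 minus Control 2 had a median of 0.20 over large subunit genes (SD 0.278) and 0.36 over small subunit genes (SD 0.270). Over all genes these medians were -0.0088 (SD 0.239) for the Cilia-deleted pair and -0.012 (SD 0.339) for the Control pair. Control 1 was above Control 2 in 39 of 46 large and 25 of 29 small subunit genes, so the Control pair differed mostly in 1 direction. Cilia-deleted 1 was above Cilia-deleted 2 in 31 of 46 and 18 of 29. The gap between the Control arrays was larger in size than the group difference in 28 of 46 large (60.9%) and 19 of 29 small subunit genes (65.5%), near the 66.8% of all genes. The Cilia-deleted gap was larger than the group difference in 15 large (32.6%) and 12 small subunit genes (41.4%), where it was in 53.4% of all genes.

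**Figure D2:**
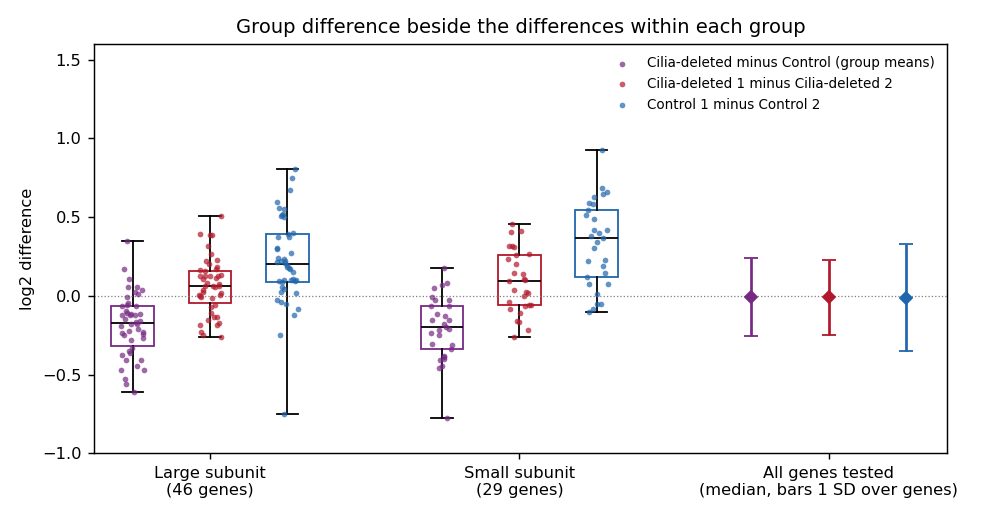
Log2 differences per gene for the large subunit, the small subunit and all genes tested: Cilia-deleted minus Control, Cilia-deleted 1 minus Cilia-deleted 2, and Control 1 minus Control 2 (points are genes, boxes span the quartiles with the median as a line, whiskers the whole range; for all genes the median with 1 SD over genes). The group differences centre on -0.17 and -0.19, and the Control gaps on 0.20 and 0.36.

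Leaving out single arrays moved the medians, and Control 1 moved that of the small subunit to near 0. Without Control 1 the median difference was -0.0955 for the large subunit, with 30 of 46 genes below 0, and -0.0002 for the small subunit, with 15 of 29 below 0. Over all genes it was then -0.026. Without Control 2 the medians were -0.26 and -0.40. Without Cilia-deleted 1 they were -0.17 for the large and -0.28 for the small subunit, and without Cilia-deleted 2 they were -0.14 for both. The medians over all genes were 0.0076 without Control 2, 0.0003 without Cilia-deleted 1 and -0.016 without Cilia-deleted 2.

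**Figure D3:**
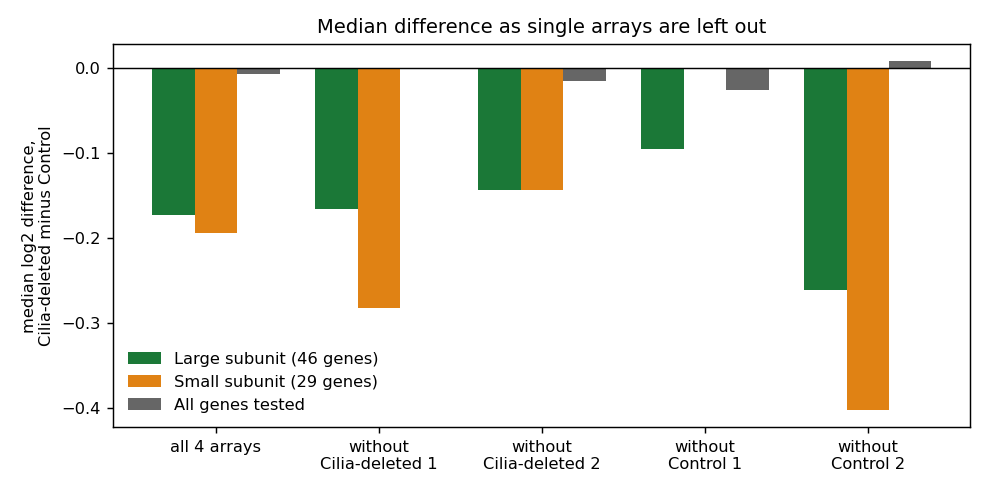
Median log2 difference, Cilia-deleted minus Control, over large subunit genes, small subunit genes and all genes tested (vertical axis) with all 4 arrays and with each array left out. Without Control 1 the small subunit bar is -0.0002 and the large subunit bar -0.0955.

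Among large subunit genes descended from bacterial proteins, Mrpl2 had the lowest difference. It encodes a protein at the core of the subunit, by the site where peptide bonds form. Mrpl2 (chr17:46646172-46650132, GRCm38.p6, 1 of its 3 promoter windows printed above) had values of -0.11 and -0.50 on the Cilia-deleted arrays and 0.50 and 0.11 on the Control arrays. Its groups did not overlap, and its within-group gaps were 0.39 for Cilia-deleted and 0.40 for Control. The difference was -0.61 (SE 0.203, n = 2 each), 1.53-fold lower, with an unadjusted p of 0.024 and a limma adjusted p = 0.812. Without Control 1 it was -0.41. Mrpl12, a protein of the flexible stalk that also binds the mitochondrial RNA polymerase in human cells, had -0.17 and -0.23 on the Cilia-deleted arrays and 0.54 and 0.17 on the Control arrays. The Cilia-deleted arrays were close together and Control 1 was the highest. Its difference was -0.56 (SE 0.164, limma adjusted p = 0.708). Mrpl10, which anchors the stalk to the subunit, had 0.032 and -0.032 on the Cilia-deleted arrays and 0.26 and -0.039 on the Control arrays. Control 2 lay below both Cilia-deleted arrays, and the difference was -0.11 with all arrays and 0.039 without Control 1.

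Mrpl28 and Mrpl20, which encode large subunit proteins with bacterial counterparts, had both Control arrays well above both Cilia-deleted arrays. Mrpl28 had -0.13 and -0.35 on the Cilia-deleted arrays and 0.31 and 0.14 on the Control arrays. Its difference was -0.47 (SE 0.147, limma adjusted p = 0.770), and its 3 probe sets gave -0.49, -0.49 and -0.42. Mrpl20 had -0.15 and -0.38 on the Cilia-deleted arrays and 0.26 and 0.15 on the Control arrays, a difference of -0.47 (SE 0.142, limma adjusted p = 0.732). Without Control 1 the differences were -0.38 for Mrpl28 and -0.42 for Mrpl20. Mrpl27, the counterpart of a bacterial protein beside the catalytic centre, had -0.15 and -0.30 on the Cilia-deleted arrays and 0.60 and 0.0015 on the Control arrays. The difference of Mrpl27 was -0.52 (SE 0.217, limma adjusted p = 0.830) and -0.23 without Control 1, and its 2 probe sets disagreed in size, with -0.92 and -0.13.

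Mrpl18, whose bacterial counterpart binds 5S rRNA, showed how far the Control arrays could part. Its values were -0.12 and 0.12 on the Cilia-deleted arrays and 0.52 and -0.28 on the Control arrays. The Cilia-deleted arrays lay between the Control arrays, whose gap of 0.81 was the widest among large subunit genes. The difference of Mrpl18 was -0.12 (SE 0.274) with all arrays and 0.28 without Control 1. Mrpl14, named here after its values were seen, had the opposite Control order, with -0.068 and 0.068 on the Cilia-deleted arrays and -0.43 and 0.32 on the Control arrays. Its Control gap was -0.75, and its group difference of 0.057 (SE 0.254) turned to -0.32 without Control 1 and was 0.43 without Control 2.

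Only 2 large subunit genes had both Cilia-deleted arrays above both Control arrays. Mrpl32, whose protein is cut by the m-AAA protease before it joins the ribosome, as shown in yeast and mouse, had 0.069 and 0.33 on the Cilia-deleted arrays and -0.069 and -0.22 on the Control arrays. It lies at chr13:14610301-14613037, and its promoter with several NRF1 matches is printed above. The difference was 0.35 (SE 0.150, unadjusted p = 0.062, limma adjusted p = 0.849), and it stayed between 0.22 and 0.48 as single arrays were left out. Mrpl36, the other, had 0.27 and 0.0057 on the Cilia-deleted arrays and -0.0057 and -0.060 on the Control arrays. Cilia-deleted 1 stood alone, and the difference was 0.17 (SE 0.145, limma adjusted p = 0.970) with all arrays and 0.039 without Cilia-deleted 1. Mrpl15, whose bacterial counterpart is a core protein of the large subunit, had 8 probe sets, the most of any of the 75 genes. Its mean was -0.0063 and 0.11 on the Cilia-deleted arrays and 0.046 and -0.16 on the Control arrays, a difference of 0.11 (SE 0.140) that ran from 0.0039 without Control 2 to 0.21 without Control 1. Its probe sets ran from -0.26 to 0.66.

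Of the large subunit proteins found in mitochondria and not in bacteria, Mrpl45, which sits at the exit tunnel and helps hold the ribosome to the inner membrane, had the lowest difference. Its values were -0.022 and -0.15 on the Cilia-deleted arrays and 0.69 and 0.022 on the Control arrays. Only Control 1 stood apart: the difference was -0.44 (SE 0.234, limma adjusted p = 0.898) with all arrays and -0.11 without Control 1. Mrpl50 had 0.19 and -0.31 on the Cilia-deleted arrays and 0.56 and -0.19 on the Control arrays, so the groups overlapped and both pairs were wide apart. Its difference was -0.24 (SE 0.292), against gaps of 0.51 for Cilia-deleted and 0.75 for Control, and it was 0.14 without Control 1. Mrpl44, related to ribonuclease III, had -0.081 and 0.051 on the Cilia-deleted arrays and 0.17 and -0.069 on the Control arrays, a difference of -0.066 (SE 0.146) that was 0.054 without Control 1. Mrpl58, a member of the release factor family that is built into the subunit and is named here after its values were seen, had -0.13 and -0.19 on the Cilia-deleted arrays and 0.21 and 0.13 on the Control arrays. The difference of Mrpl58 was -0.33 (SE 0.125, limma adjusted p = 0.820). Its means were close together within each group, but its 2 probe sets were not, and they gave differences of -0.76 and 0.097. Their Control gaps were 0.54 and -0.37 and their Cilia-deleted gaps 0.32 and -0.20, opposite in sign, so that they partly cancelled in the mean.

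In the small subunit, Mrps28 (chr3:8802146-8923857), the mitochondrial relative of a bacterial protein that binds messages, had the lowest difference of all 75 genes. Its values were -0.21 and -0.52 on the Cilia-deleted arrays and 0.61 and 0.21 on the Control arrays. The groups did not overlap, and the nearest arrays of the 2 groups were farther apart than either pair. The difference was -0.77 (SE 0.192, n = 2 each, 95% interval -1.25 to -0.30), 1.71-fold lower, with an unadjusted p of 0.0073 and a limma adjusted p = 0.633. Without Control 1 it was -0.57.

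Mrps34, a protein found in mitochondria and not in bacteria, had the arrays of each group closest together among the low genes of the subunit. It had -0.21 and -0.21 on the Cilia-deleted arrays and 0.21 and 0.26 on the Control arrays. The difference was -0.45 (SE 0.122, unadjusted p = 0.011, limma adjusted p = 0.682), and it kept between -0.47 and -0.42 as single arrays were left out. Here Control 2 and not Control 1 was the higher Control array. A probe set assigned to both Nme3 and Mrps34, kept out of the gene's mean, had a difference of -0.25 (SE 0.148).

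Other small subunit genes with bacterial counterparts varied in how their arrays were ordered. Mrps16 had -0.090 and -0.35 on the Cilia-deleted arrays and 0.28 and 0.090 on the Control arrays, a difference of -0.40 (SE 0.154, limma adjusted p = 0.820). Mrps12, the counterpart of the bacterial protein at the decoding site, had 0.017 and -0.44 on the Cilia-deleted arrays and 0.40 and -0.017 on the Control arrays. Its groups overlapped, since Cilia-deleted 1 lay above Control 2, and its difference of -0.40 (SE 0.218) was smaller than the gap of 0.46 between the Cilia-deleted arrays. Mrps9 had -0.15 and -0.097 on the Cilia-deleted arrays and 0.36 and 0.057 on the Control arrays, a difference of -0.34 (SE 0.152, limma adjusted p = 0.869). Its 4 probe sets gave -0.80, -0.50, -0.19 and 0.15, so they disagreed in sign. Without Control 1 the differences were -0.18 for Mrps9, -0.20 for Mrps12 and -0.31 for Mrps16.

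Among small subunit proteins particular to mitochondria, Mrps33 had -0.29 and -0.028 on the Cilia-deleted arrays and 0.58 and 0.028 on the Control arrays. The groups were apart by a narrow margin between Cilia-deleted 2 and Control 2. Its difference was -0.46 (SE 0.215, limma adjusted p = 0.881) and -0.18 without Control 1. Mrps25, the mean of 3 probe sets, had 0.0050 and -0.23 on the Cilia-deleted arrays and 0.48 and 0.066 on the Control arrays, with a difference of -0.39 (SE 0.185) and of -0.18 without Control 1. Mrps35 had 0.20 and -0.20 on the Cilia-deleted arrays and 0.66 and -0.27 on the Control arrays. Its Control gap of 0.93 was the widest of all 75 genes, and its difference of -0.19 (SE 0.320) turned to 0.27 without Control 1. Mrps27, a pentatricopeptide repeat protein, had 0.0058 and 0.072 on the Cilia-deleted arrays and -0.0058 and -0.079 on the Control arrays, a difference of 0.081 (SE 0.125, limma adjusted p = 1.0).

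The 3 genes named Mrps18 encode related proteins that occupy different places in the ribosome. Mrps18b and Mrps18c had a similar pattern here and Mrps18a another, and no difference between the 3 was tested. Mrps18c had 0.039 and -0.055 on the Cilia-deleted arrays and 0.64 and -0.039 on the Control arrays, a difference of -0.31 (SE 0.235). Mrps18b had -0.084 and 0.084 on the Cilia-deleted arrays and 0.51 and -0.15 on the Control arrays, a difference of -0.18 (SE 0.233). In both the groups overlapped and Control 1 was alone on the high side, and without Control 1 the differences were 0.031 for Mrps18c and 0.15 for Mrps18b. Mrps18a, whose protein is placed in the large subunit by structures of the ribosome, had 0.078 and 0.12 on the Cilia-deleted arrays and -0.078 and -0.088 on the Control arrays. Its difference was 0.18 (SE 0.122, limma adjusted p = 0.942), with the groups apart and both pairs close together.

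**Figure D4:**
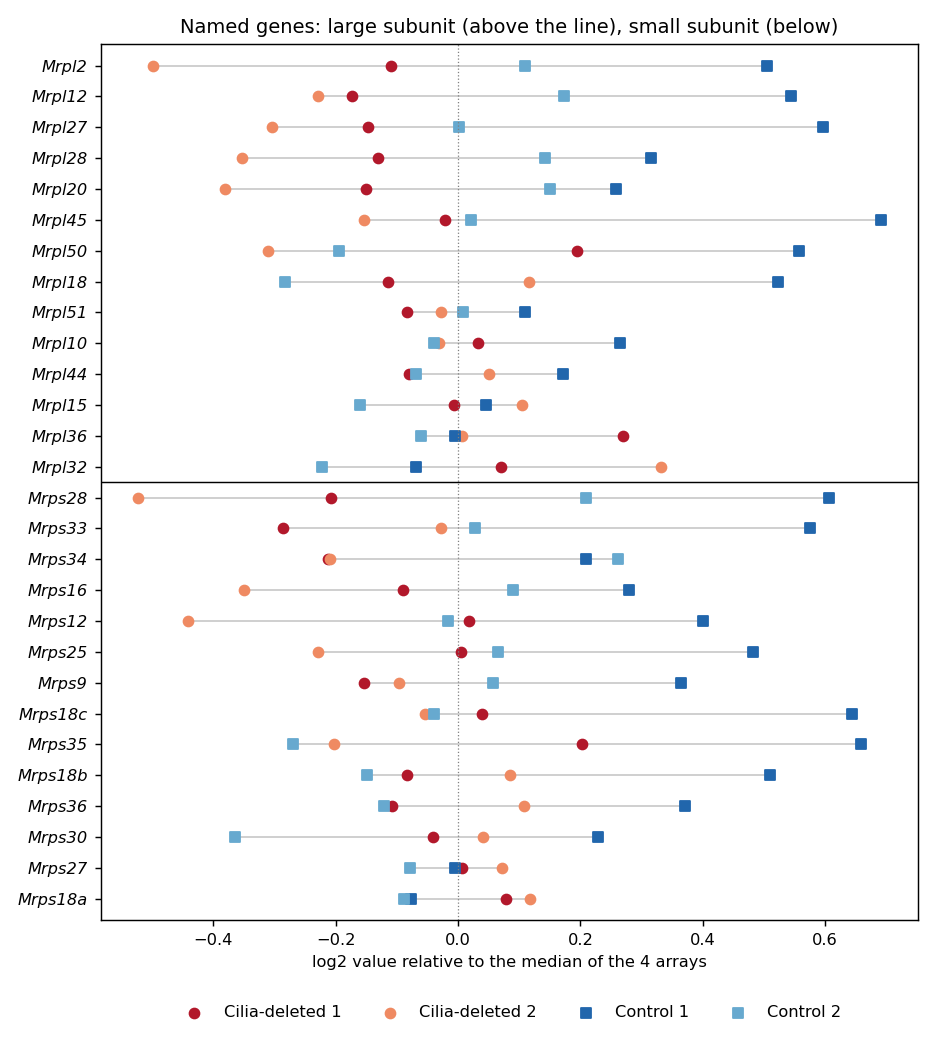
Log2 value relative to the median of the 4 arrays (horizontal axis) of 28 named genes, with large subunit genes above the line and small subunit genes below it (circles Cilia-deleted, squares Control). Mrpl14 and Mrpl58, named after their values were seen, are not shown. Control 1 is the rightmost point in most rows, and Mrps34, Mrps18a and Mrpl32 are among the rows where it is not.

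Structures of the ribosome place some of these proteins elsewhere than their symbols do. Mrps30 and Mrps18a belong to the large subunit, and Mrps36 is now known as a part of the 2-oxoglutarate dehydrogenase complex. Mrps30 had -0.040 and 0.040 on the Cilia-deleted arrays and 0.23 and -0.36 on the Control arrays, a difference of 0.068 (SE 0.213) that was 0.36 without Control 1 and -0.23 without Control 2. Mrps36 had -0.11 and 0.11 on the Cilia-deleted arrays and 0.37 and -0.12 on the Control arrays, a difference of -0.12 (SE 0.199) that was 0.12 without Control 1. With the symbols sorted by structure, 48 large subunit genes had a median of -0.16 with 38 below 0, and 26 small subunit genes had a median of -0.21 with 24 below 0. For a split by origin on the same basis, Mrps18a and Mrps18b were listed as particular to mitochondria. Mrps18c, which is related to both, was listed with a bacterial counterpart. In this split the large subunit had medians of -0.16 over 27 proteins with a bacterial counterpart and -0.18 over 21 particular to mitochondria. The small subunit had -0.23 over 16 with a bacterial counterpart, all 16 below 0, and -0.19 over 10 particular to mitochondria, 8 of them below 0. Without Control 1 these medians were -0.11 and -0.063 for the large subunit and -0.079 and 0.037 for the small subunit.

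Several probe sets read 42 of the 75 genes, and in 29 of these 42 they took both signs. The median gap between the highest and lowest probe set of a gene was 0.47. The widest was 0.96, in Mrpl51, a protein particular to mitochondria, whose probe sets gave -0.66, 0.027 and 0.30. The mean of Mrpl51 was -0.083 and -0.028 on the Cilia-deleted arrays and 0.11 and 0.0072 on the Control arrays, a difference of -0.11 (SE 0.126) that was -0.063 without Control 1. Of 155 probe sets tested one by one, 0 passed the threshold, the lowest adjusted p being 0.531 for a Mrpl15 probe set with a difference of 0.66. The 55 probe sets of the brightest class had a median of -0.19, the 94 of the class below it -0.17 and the 5 of the next class down 0.010.

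The partners of the mitochondrial ribosome were taken from fixed lists, and 0 genes of any of them passed the threshold. Of 25 assembly factors 17 lay below 0, with a median of -0.071, but without Control 1 it was 0.020 with 11 below 0. Rpusd4, a pseudouridine synthase of the mitochondrial rRNA, had a difference of -0.52 (SE 0.169), and Nsun4, an rRNA methyltransferase, one of 0.39 (SE 0.189). Of 17 genes listed as translation factors 14 lay below 0, with a median of -0.11, but without Control 1 it was 0.015 with 8 below 0. Mrrf, which recycles the ribosome after release, had -0.30 and -0.40 on the Cilia-deleted arrays and 0.66 and 0.30 on the Control arrays. Its difference of -0.83 (SE 0.164, limma adjusted p = 0.424) was larger in size than that of any mitochondrial ribosomal protein gene, and Tmem70, which is in that list though known for the assembly of ATP synthase, had -0.46 (SE 0.197). Of 20 genes charging mitochondrial tRNAs 15 lay below 0, with a median of -0.081 (-0.042 without Control 1), and the largest differences were -0.46 for Qrsl1 (SE 0.126) and -0.39 for Wars2 (SE 0.136). For 21 genes of mitochondrial transcription and RNA processing the median was 0.0066 with 10 below 0, and for 12 regulators of mitochondrial biogenesis it was 0.069 with 4 below 0. Without Control 1 these were 0.098 with 5 below 0 and 0.055 with 5 below 0. In the first of these lists Polg2, a subunit of the mitochondrial DNA polymerase, had 0.56 (SE 0.175) and Polrmt, the mitochondrial RNA polymerase, 0.29 (SE 0.128). In the other, Ppargc1b had 0.28 (SE 0.290) and Gabpb1 0.23 (SE 0.263). The 4 mitochondrial ribosomal proteins without an Mrp symbol had a median of 0.032 with 0 below 0 (0.14 with 1 below 0 without Control 1), among them Dap3 at 0.043 (SE 0.149) and Gadd45gip1 at 0.045 (SE 0.125).

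Genes of the respiratory chain, of protein import and of the cytosolic ribosome also stood highest on Control 1. The 72 nuclear-coded subunits of the respiratory chain had medians of -0.076 and -0.16 on the Cilia-deleted arrays, 0.35 on Control 1 and 0.050 on Control 2. Their median difference was -0.30, with 69 of 72 below 0 and 48 lower with the groups apart (66.7%). Without Control 1 it was -0.16. The largest differences were those of Atp5e, a subunit of ATP synthase, at -0.92 (SE 0.179, limma adjusted p = 0.417), and Ndufa1 of complex I, at -0.80 (SE 0.172). The 25 genes of mitochondrial protein import had a median of -0.17 with 21 below 0, and -0.086 without Control 1, with Timm13 at -0.78 (SE 0.235) and Pam16 at -0.69 (SE 0.205). The 50 cytosolic ribosomal protein genes had a median of -0.11 with 38 below 0, and -0.062 without Control 1, with Rps4l at -0.71 (SE 0.218) and Rps26 at -0.66 (SE 0.175). No test was made of a difference between the lists.

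**Figure D5:**
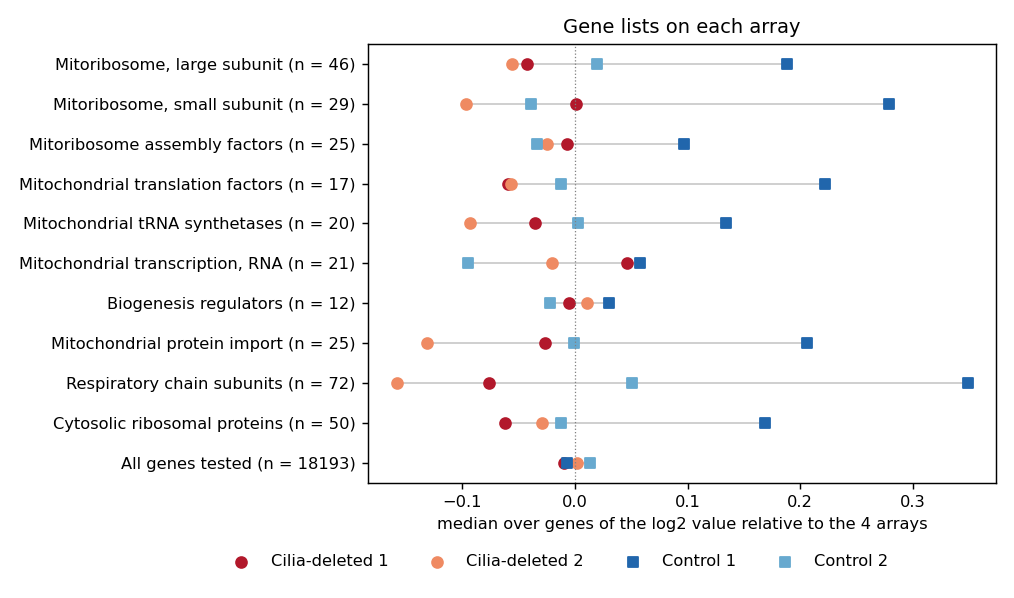
Median over the genes of each list of the log2 value relative to the 4 arrays (horizontal axis), 1 point per array (circles Cilia-deleted, squares Control). Control 1 is rightmost for both subunits and for respiratory chain subunits, where it reaches 0.35, and all 4 arrays lie near 0 for all genes tested.

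The 3′ and 5′ probe sets of the array's control transcripts compare transcript coverage between arrays. Each probe set is centred on its own median, so the coverage on an array by itself is lost. The 3′ minus 5′ value of Gapdh was -0.066 and -0.40 on the Cilia-deleted arrays and -0.18 and 0.066 on the Control arrays, and that of Actb was -0.10 and -0.14 on the Cilia-deleted arrays and 0.10 and -0.047 on the Control arrays. The group differences were -0.18 for Gapdh, -0.15 for Actb, -0.060 for Tfrc and -0.035 for Pcx. The part of coverage in the values of the mitochondrial ribosomal protein genes was not tested.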

How the data were processed

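The deposited table holds log2 values of 45101 Affymetrix probe sets on 4 arrays. RMA was used, per the submitters' processing notes, with no version. The deposited median of each probe set over the arrays is 0, so levels are lost, and the log base was inferred from the values. Precision is limited by the number of arrays, 2 per group. The 64 control probe sets, 932 probe sets with several symbols and 9160 with none were left out of gene values, which are means over the 34945 others. Of these, 34741 took the current RefSeq symbol (GRCm38.p6).

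All 18193 genes were fitted in limma 3.58.1 under R 4.3.3 with lmFit and eBayes without trend, two-sided. The residual degrees of freedom were 2 and the prior ones 3.83. The fit was tested on simulated data. Samples were grouped by genotype label. Alternatives were renewed quantile normalization, array centring, single probe sets, other probe set choices, a robust spread, another threshold, a replicate block, X and Y genes left out, and each array left out. P values measure the spread between samples labelled biological replicates.

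The 75 genes, the lists and the motifs were chosen with earlier results of these data known. Named were, per subunit, the 6 lowest and the 3 highest genes with groups apart (2 existed), the 2 with the widest Control gap and the 1 with the widest Cilia-deleted gap, and over both subunits the 3 with the farthest probe sets, 9 fixed genes, and the 2 with the largest difference of other lists. The 8 genes at an unadjusted p under 0.05 are named as a count. Promoters are the first window of each gene in the RefSeq table, searched on both strands.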

Additional observations from a re-analysis of the deposited data

How the results depend on the processing

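Mitochondrial ribosomal protein genes past the threshold numbered 0 under every setting run, with 8 lower and 0 higher at an unadjusted limma p under 0.05 as reported. Medians of both subunits stayed below 0 in each, but renewed quantile normalization moved them toward 0. That normalization was run on values already centred per probe set, so it evened the spread of relative values and not expression levels. The large subunit went from -0.17 to -0.13 and the small subunit from -0.19 to -0.12. Below 0 were then 36 of 46 large and 23 of 29 small subunit genes. Lower with groups apart were 22 (47.8%) and 7 (24.1%), against 22 and 9 as reported. With single probe sets, 65 of 103 for the large and 40 of 52 for the small subunit lay below 0. Lower with groups apart were 41 (39.8%) and 15 (28.8%). In the brightest class, 18 of 24 large and 11 of 13 small subunit genes lay below 0. Lower with groups apart were 13 (54.2%) and 3 (23.1%). For these settings the share of all genes is given only as reported, at 18.6%, so the counts lack a matching share. The shares below 0 were 63.1% and 76.9% of probe sets, against 82.6% and 86.2% as reported, and the cause was not tested. With the probe set of largest spread per gene the large subunit median was -0.27, and the cause was not tested. Each array left out, with a lone array assumed to vary like the other group, gave medians of -0.26 to -0.0955 (large) and -0.40 to -0.0002 (small). Genes below 0 numbered 30 to 41 and 15 to 25, and genes lower with groups apart 25 to 37 (54.3% to 80.4%) and 10 to 24 (34.5% to 82.8%), where 30.6% to 40.2% of all genes were, since 1 array against 2 overlaps less often. Without Control 1 the small subunit's 34.5% stood below the 40.2% of all genes. Signs of named genes turned in the ranges of Mrpl50 (-0.61 to 0.14), Mrps35 (-0.66 to 0.27), Mrpl18 (-0.52 to 0.28), Mrps18c (-0.65 to 0.031), Mrps18b (-0.51 to 0.15), Mrps36 (-0.37 to 0.12), Mrpl10 (-0.26 to 0.039), Mrpl44 (-0.19 to 0.054), Mrps30 (-0.23 to 0.36) and Mrpl14 (-0.32 to 0.43). Without Cilia-deleted 2, Mrpl50 was 0.014 and Mrps35 0.0084. Replicate numbers are shared between the groups only as numbers: same-numbered arrays deviated together with r = 0.139 over all genes, with only 2 pairs. With the replicate block, 0 of the 75 genes passed (lowest adjusted p 0.463), and 14 were lower at an unadjusted p under 0.05. The share of all genes at that limit with the block is not given here, so the 14 cannot be set beside it. Genes called over all genes numbered 1 with the block, 14 after quantile normalization, 20 among probe sets, 8 with the largest spread, 6 in the brightest class, 11 at a threshold of 0.1, 0 without X and Y genes, and 56, 38, 2 and 2 without Cilia-deleted 1, Cilia-deleted 2, Control 1 and Control 2, against 2 as reported.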

Other observations

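Members on chromosome 13, a pattern noticed after the values were seen, were Mrpl32, Mrpl36, Mrps27, Mrps30 and Mrps36. Their median difference was 0.081 with 1 of 5 below 0. The other 70 genes had a median of -0.19 with 62 below 0. All 702 tested genes on chromosome 13 had a median of 0.0020 with 339 below 0, and no test of the 5 genes was made.

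The 8 genes with a YY1 match in the promoter window had a median difference of -0.0095, and the others with a window -0.20. Mrpl36 (0.17), Mrps18a (0.18) and Mrps27 (0.081) of the 8 had the groups apart and higher in Cilia-deleted chondrocytes. Mrpl35 (-0.16) had the groups apart and lower. The groups overlapped in Mrpl37 (0.028), Mrpl42 (-0.047), Mrps11 (-0.15) and Mrps24 (-0.21). The medians with and without a match were -0.18 and -0.18 for NRF1, -0.19 and -0.16 for ETS, and -0.21 and -0.15 for the GC box. For the GC box the subunits went opposite ways, with -0.21 and -0.0084 for the small subunit and -0.15 and -0.19 for the large. These splits were looked at after the values were seen and were not tested.

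Probe sets assigned to several genes gave -0.32 and -0.034 for Gm6238 and Mrpl30, and -0.34 for Ccdc142 and Mrpl53. Neither Mrpl30 nor Mrpl53 is among the 75 genes.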
